A study of Mus musculus with 7 samples.

Results

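The 10 genes described here mark endothelial cells, the lining of blood vessels: Pecam1, Cdh5, Cldn5, Esam, Tek, Tie1, Kdr, Flt1, Robo4 and Sox17. They were chosen by name as textbook endothelial genes, out of 27179 genes in the deposited table, and all 10 were measured in every library and entered the test. The study took RNA from the whole ankle of mice of strain DBA1 in which collagen-induced arthritis had been raised, an autoimmune joint inflammation that follows immunising mice against cartilage collagen. The miR-17-5p group holds 4 ankle libraries (replicates 1, 2, 4 and 5) from joints injected with a lipid complex carrying a synthetic copy (mimic) of miR-17-5p, a microRNA. The control group holds 3 ankle libraries (replicates 2, 3 and 5) from joints that received the same kind of complex with an irrelevant microRNA. All 7 libraries share the strain, the arthritis and the lipid carrier, and no untreated or non-arthritic ankle was analysed here. The sources used here give no age, sex, dose or time between injection and dissection, and they do not state that each library came from a separate animal, so the tests measure the spread between these samples, which may be technical. Skin had been removed but the rest of the ankle went into the extract, so synovium, bone, marrow, tendon, muscle and vessels are mixed in each library. In such bulk RNA, fewer endothelial cells and less RNA per endothelial cell cannot be told apart.

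Endothelial cells hold each other by adherens and tight junctions, and they read growth signals through receptor tyrosine kinases. VEGF ligands act on Kdr and Flt1 to drive vessel growth and leakiness, while angiopoietins act on Tek, with Tie1 as its partner, to stabilise or loosen vessels. In arthritic joints the inflamed synovium grows new vessels, and leukocytes enter the joint across this lining. MicroRNAs such as miR-17-5p, which is made from the Mir17hg host transcript, pair with short matches in the 3′ UTR of messenger RNAs through their seed bases and lower the level or translation of those RNAs.

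The mature miR-17-5p sequence (RefSeq, GRCm38.p6, chr14:115043684-115043706, plus strand) is shown first because the matches in the members were read against it, with the seed, bases 2 to 8, in capitals. Each member's longest annotated 3′ UTR was searched on its own strand for the seed matches GCACTTTA (8mer), GCACTTT and CACTTTA (7mers) and CACTTT (6mer), each site being counted once as its longest match. The sites found in the members follow, from the GRCm38 genome, 5′ to 3′ on the gene's strand, with the matched bases in capitals.
miR-17-5p: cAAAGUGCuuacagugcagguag
Cldn5 7mer, chr16:18777834-18777861, plus strand: cagactacagGCACTTTtaagaacttga
Cldn5 6mer, chr16:18778243-18778262, plus strand: aatggtttgaaCACTTTcaa
Sox17 7mer, chr1:4491113-4491140, minus strand: ttaattctgtaCACTTTAatgaggctgt
Flt1 6mer, chr5:147637980-147638007, minus strand: aagagcaattaCACTTTgaacttgcatt
Robo4 6mer, chr9:37414349-37414376, plus strand: tggctagtgaaCACTTTttagacacaac

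A 7mer was thus present in 2 of 10 members (20%), Cldn5 and Sox17, a 6mer as the best match in 2 of 10 (Flt1 and Robo4), and no match in the other 6. Among the 12481 tested genes with an annotated 3′ UTR, 21.2% held an 8mer or a 7mer, 19.3% a 6mer at best and 59.5% none, so the members held these letters about as often as other genes did. The Cldn5 and Sox17 sites lie inside the exons that were counted. Those of Flt1 and Robo4 lie outside the counted exons. The Robo4 site is past the end of the counted gene model. The Flt1 site is within the span of the counted gene (chr5:147562196-147725988, minus strand), far from its 3′ end at the lower coordinate. Only the longest annotated 3′ UTR was searched, so a 3′ UTR of Flt1 at that end was not. A match describes the letters only and shows neither binding nor regulation. The host transcript Mir17hg had 3.07, 1.98, 2.84 and 2.72 FPKM (fragments per kilobase of exon scaled to the reads assigned to genes, a level per length) in miR-17-5p ankles, against 1.75, 3.86 and 3.40 FPKM in control ankles. These values overlap, and they do not measure the injected mimic, which mRNA sequencing does not count.

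The 7 libraries held 27465276 to 31118975 reads assigned to genes, and 13130 to 13470 genes at 1 FPKM or more. Genes averaging at least 1 FPKM over the 7 libraries were tested with limma on log2(FPKM + 0.5), and a gene was called at an adjusted p under 0.05 (Benjamini-Hochberg over all 13418 genes tested). Of them, 0 were called (0%), while 2356 (17.6%) had an unadjusted p under 0.05, and limma-voom on the recovered reads gave 0 called and 2365. In 2055 genes (15.3%) no miR-17-5p value overlapped a control value, and in 869 of all tested genes (6.48%) every miR-17-5p library was above every control library. With control replicate 2 left out, 318 genes (2.37%) were called, 115 higher and 203 lower in miR-17-5p ankles.

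No member of the endothelial group was called, either with all 7 libraries or without control replicate 2. Tek alone had an unadjusted p under 0.05 and alone had groups that did not overlap, 1 of 10 in each case against the 17.6% and 15.3% of all genes above. Means were higher in miR-17-5p ankles for 8 members and lower for Cdh5 and Kdr, while 6487 of the 13418 genes tested (48.3%) had a higher mean. The median log2 fold change (miR-17-5p over control) of the 10 members was 0.10, beside -0.0063 over all genes tested. Their median absolute log2 fold change was 0.104, beside 0.119 over all genes. The members' median SD within groups was 0.104 on the log2 scale, beside 0.128 over all genes, which include genes at lower levels than the members. Cldn5 at 0.31 and Sox17 at 0.25 spread more, and the 20 other pan-endothelial genes described below had a median of 0.147. Fold changes here are on the log2(FPKM + 0.5) scale, which slightly understates the change of the lowest member, Sox17.

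**Figure D1:**
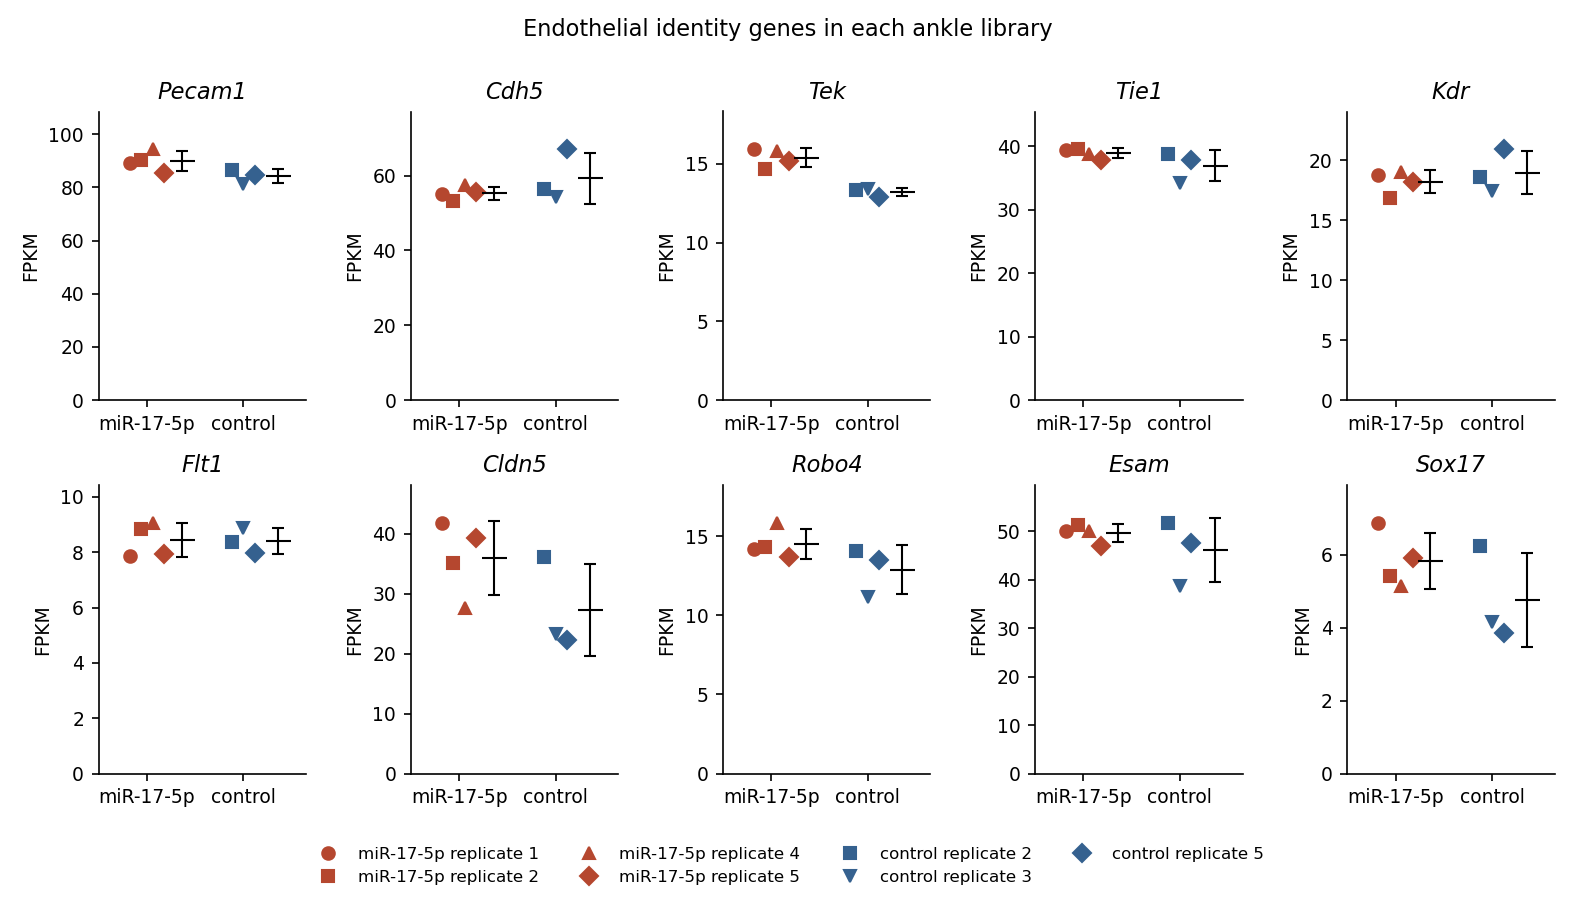
FPKM of each of the 10 endothelial genes in the 4 miR-17-5p libraries and the 3 control libraries, 1 point a library numbered by its replicate, with group means as bars. Only Tek has groups that do not overlap, with miR-17-5p libraries at 14.6 to 15.9 FPKM and control libraries at 12.9 to 13.4 FPKM.

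Ordered by mean level over the 7 libraries, Pecam1 stood first at 87.4 FPKM, followed by Cdh5 at 57.0, Esam at 48.0, Tie1 at 38.0 and Cldn5 at 32.2 FPKM. Kdr averaged 18.6, Tek 14.5, Robo4 13.8, Flt1 8.42 and Sox17 5.38 FPKM. FPKM divides by exon length, so these levels can be set side by side. The ranges of Esam and Tie1 overlapped, although Esam was above Tie1 in all 7 libraries. Tie1 and Cldn5 overlapped too, Tie1 being higher in 5 of 7, and Tek and Robo4 overlapped, Tek being higher in 4 of 7. Each other pair of neighbours in this order was separated in every library. The reads behind the members ran from 358 for Sox17 to 9300 for Pecam1 in a library, which gives a counting error of 1.08% for Pecam1 and 4.47% for Sox17. Spread between replicates, as shown next, exceeded it for most members, but not for Tek in control ankles.

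The junction genes come first. Pecam1 (chr11:106654218-106715281, mm10) encodes CD31, a homophilic adhesion molecule of endothelial contacts that platelets and leukocytes also carry. It had 89.3, 90.4, 94.4 and 85.6 FPKM in miR-17-5p ankles, against 86.5, 81.4 and 84.5 FPKM in control ankles. The 3 highest values were miR-17-5p libraries, but control replicate 2 was above miR-17-5p replicate 5. The means were 89.9 ± 3.63 FPKM (SD, n = 4) in miR-17-5p ankles and 84.2 ± 2.58 FPKM (SD, n = 3) in control ankles, which on the log2 scale is a difference of 0.094 ± 0.058 (SE; limma's adjusted p = 0.417).

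Cdh5 (chr8:104101625-104144502) encodes VE-cadherin, the adhesion receptor of endothelial adherens junctions. It had 55.0, 53.3, 57.5 and 55.6 FPKM in miR-17-5p ankles, against 56.3, 54.4 and 67.1 FPKM in control ankles. Control replicate 5 stood above the other 6 libraries, which lay within 53.3 to 57.5 FPKM. The means were 55.3 ± 1.73 FPKM (SD, n = 4) in miR-17-5p ankles and 59.3 ± 6.84 FPKM (SD, n = 3) in control ankles, with a log2 fold change of -0.092 ± 0.081 (SE; limma's adjusted p = 0.562). Without control replicate 5 it was -0.00059, so the lower mean of Cdh5 rested on that library. Among its exon bases, 847 are shared with a gene on the opposite strand that the table lists by number only, at 0.116 FPKM or less in every library. The sources used here do not say whether counting used the strand, so reads from the shared stretch cannot be assigned to one of them, and no other member shares exon bases with another listed gene.

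Esam (chr9:37528089-37538319) encodes an adhesion molecule of endothelial tight junctions that platelets and megakaryocytes also carry. Its level was 49.9, 51.3, 49.97 and 47.0 FPKM in miR-17-5p ankles, against 51.7, 38.7 and 47.6 FPKM in control ankles. Control replicate 3 was low and the other 6 libraries lay close together, control replicate 2 being the highest of all. The group means of 49.5 ± 1.85 FPKM (SD, n = 4) in miR-17-5p ankles and 46.0 ± 6.63 FPKM (SD, n = 3) in control ankles differed by less than the control spread (log2 fold change 0.11, SE 0.099, limma adjusted p = 0.554). Without control replicate 3 the log2 fold change was -0.0031.

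Cldn5 (chr16:18776847-18778262, 1 exon) encodes claudin-5, the main claudin of endothelial tight junctions. It had 41.8, 35.04, 27.7 and 39.3 FPKM in miR-17-5p ankles, against 36.1, 23.3 and 22.3 FPKM in control ankles. Control replicate 2 exceeded miR-17-5p replicates 2 and 4, and the other control libraries were the lowest of the 7. The means were 35.96 ± 6.19 FPKM (SD, n = 4) in miR-17-5p ankles and 27.2 ± 7.69 FPKM (SD, n = 3) in control ankles, a 1.33-fold higher mean with a 95% interval of 0.962 to 1.84. In log2 terms this was 0.41 (SE 0.20, limma adjusted p = 0.331), the largest difference among the 10 members and the one with the widest replicate spread. Without control replicate 2 it was 0.63 (limma adjusted p = 0.0752), without control replicate 5 it was 0.29 (limma adjusted p = 0.716), and over all alternatives it ranged from 0.26 to 0.63. Cldn5 holds the 7mer and 6mer matches printed above, and its mean was not lower in the miR-17-5p ankles.

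The receptors of the angiopoietin system follow. Tek (chr4:94739300-94874939) encodes TIE2, the receptor for angiopoietins on endothelial cells. Its level was 15.9, 14.6, 15.8 and 15.2 FPKM in miR-17-5p ankles, against 13.4, 13.4 and 12.9 FPKM in control ankles. Every miR-17-5p library lay above every control library, with a gap wider than the control range. That range was narrow: the control SD was 1.98% of the mean, under the counting error of 2.24% for Tek. The control range may therefore understate the spread. In miR-17-5p ankles the SD was 3.84% of the mean. Means of 15.4 ± 0.590 FPKM (SD, n = 4) in miR-17-5p ankles and 13.2 ± 0.261 FPKM (SD, n = 3) in control ankles give a 1.16-fold higher mean (95% interval 1.06 to 1.26), or 0.21 on the log2 scale (SE 0.053). The limma adjusted p was 0.176, so Tek was not called. The difference kept its direction in all 19 alternatives, between 0.18 and 0.23, with limma adjusted p values of 0.0853 to 0.530. No seed match was found in its 3′ UTR.

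Tie1 (chr4:118471191-118489849) encodes the receptor that pairs with Tek and has no well-established ligand of its own. It had 39.4, 39.5, 38.7 and 37.8 FPKM in miR-17-5p ankles, against 38.8, 34.3 and 37.7 FPKM in control ankles. The miR-17-5p libraries lay within a narrow range, and among the controls replicate 3 was low. The means were 38.9 ± 0.782 FPKM (SD, n = 4) in miR-17-5p ankles and 36.9 ± 2.37 FPKM (SD, n = 3) in control ankles, with a log2 fold change of 0.074 ± 0.059 (SE; limma's adjusted p = 0.522), and of 0.022 without control replicate 3.

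Kdr and Flt1 are the VEGF receptors. Kdr (chr5:75933265-75978428) encodes VEGFR2, which carries most of the VEGF signal for endothelial growth. Its level was 18.8, 16.9, 19.0 and 18.2 FPKM in miR-17-5p ankles, against 18.6, 17.4 and 20.9 FPKM in control ankles. The groups overlapped, the highest library being control replicate 5, as for Cdh5, and the lowest miR-17-5p replicate 2. The log2 fold change was -0.055 (SE 0.077, limma adjusted p = 0.713), and it was 0.016 without control replicate 5. Flt1 (chr5:147562196-147725988) encodes VEGFR1, which binds VEGF tightly but signals weakly and also occurs on monocytes and macrophages. It had 7.87, 8.85, 9.07 and 7.93 FPKM in miR-17-5p ankles, against 8.36, 8.89 and 7.96 FPKM in control ankles. The means nearly coincided, at 8.43 ± 0.619 FPKM (SD, n = 4) in miR-17-5p ankles and 8.41 ± 0.466 FPKM (SD, n = 3) in control ankles, and the 95% interval of the fold ran from 0.889 to 1.13. Its direction depended on the setting, with log2 fold changes between -0.078 and 0.042.

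Robo4 (chr9:37402046-37414022) encodes an endothelial roundabout receptor that steadies the vessel barrier. It had 14.2, 14.3, 15.8 and 13.7 FPKM in miR-17-5p ankles, against 14.0, 11.1 and 13.5 FPKM in control ankles. Control replicate 3 stood below the others and miR-17-5p replicate 4 above them, the rest lying within 13.5 to 14.3 FPKM. The means of 14.5 ± 0.935 FPKM (SD, n = 4) in miR-17-5p ankles and 12.9 ± 1.54 FPKM (SD, n = 3) in control ankles gave a log2 fold change of 0.17 ± 0.092 (SE; limma's adjusted p = 0.366). Without control replicate 3 it was 0.073, and without miR-17-5p replicate 4 it was 0.13.

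Sox17 (chr1:4490928-4496413) encodes a SoxF transcription factor of arterial endothelium and the lowest-expressed member. It had 6.88, 5.42, 5.14 and 5.91 FPKM in miR-17-5p ankles, against 6.24, 4.16 and 3.87 FPKM in control ankles. Control replicate 2 was the second highest of the 7 libraries and the other controls were the lowest, the same order at the bottom as in Cldn5. The means were 5.84 ± 0.765 FPKM (SD, n = 4) in miR-17-5p ankles and 4.76 ± 1.29 FPKM (SD, n = 3) in control ankles, with a log2 fold change of 0.29 ± 0.17 (SE; limma's adjusted p = 0.386). It was 0.48 without control replicate 2 (limma adjusted p = 0.0704), 0.22 without control replicate 3 and 0.17 without control replicate 5 (limma adjusted p = 0.787). Like Cldn5, Sox17 holds a 7mer match and its mean was not lower in miR-17-5p ankles.

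**Figure D2:**
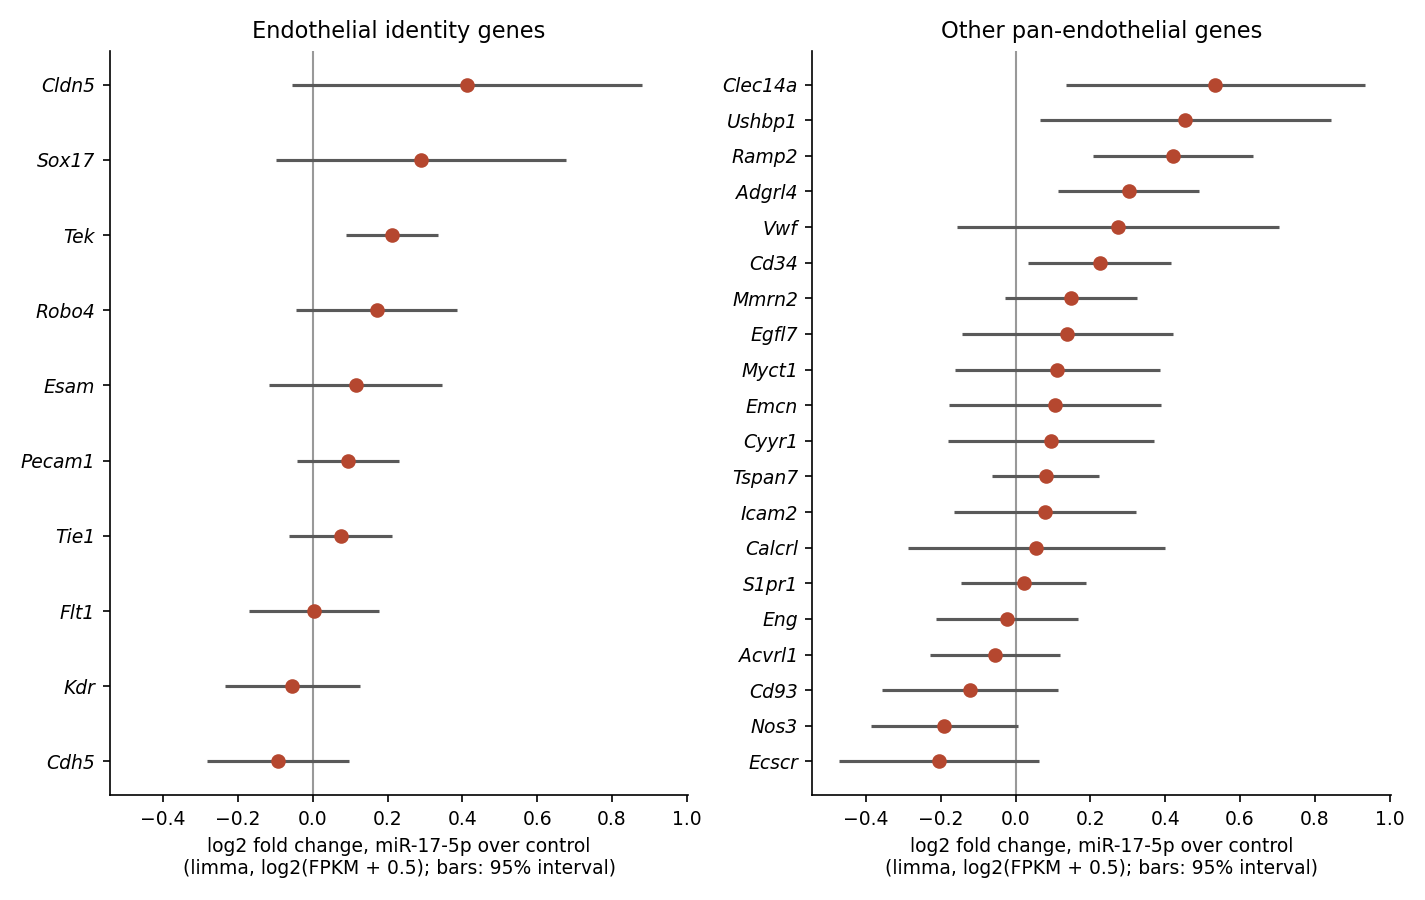
Log2 fold changes (miR-17-5p over control, log2(FPKM + 0.5) scale) with 95% intervals from limma, for the 10 members on the left and for 20 other pan-endothelial genes on the right. Tek is the only member whose interval lies above 0, from 0.088 to 0.34, and Cldn5 has the largest value at 0.41 with an interval that includes 0.

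The members did not vary in parallel over the libraries. Centred on each gene's own mean, Cldn5 was at 0.41, 0.16, -0.18 and 0.32 (log2) in miR-17-5p replicates 1, 2, 4 and 5, against 0.20, -0.42 and -0.48 in control replicates 2, 3 and 5. Sox17 ran close to it, at 0.35, 0.033, -0.036 and 0.15 in miR-17-5p ankles, against 0.22, -0.31 and -0.41 in control ankles. Cdh5 and Kdr instead reached their highest deviation in control replicate 5, at 0.24 and 0.17, the library in which Tek, Cldn5 and Sox17 were lowest. Control replicate 3 gave the lowest value of 4 members, Pecam1, Tie1, Robo4 and Esam, and control replicate 2 the highest value of Esam. The miR-17-5p replicate 1 library held the highest values of Tek, Cldn5 and Sox17. Averaged over the 10 members, the deviations were 0.097, 0.032, 0.047 and 0.033 in miR-17-5p ankles, against 0.045, -0.18 and -0.080 in control ankles. Control replicate 2 thus lay among the miR-17-5p libraries and the other controls below them.

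**Figure D3:**
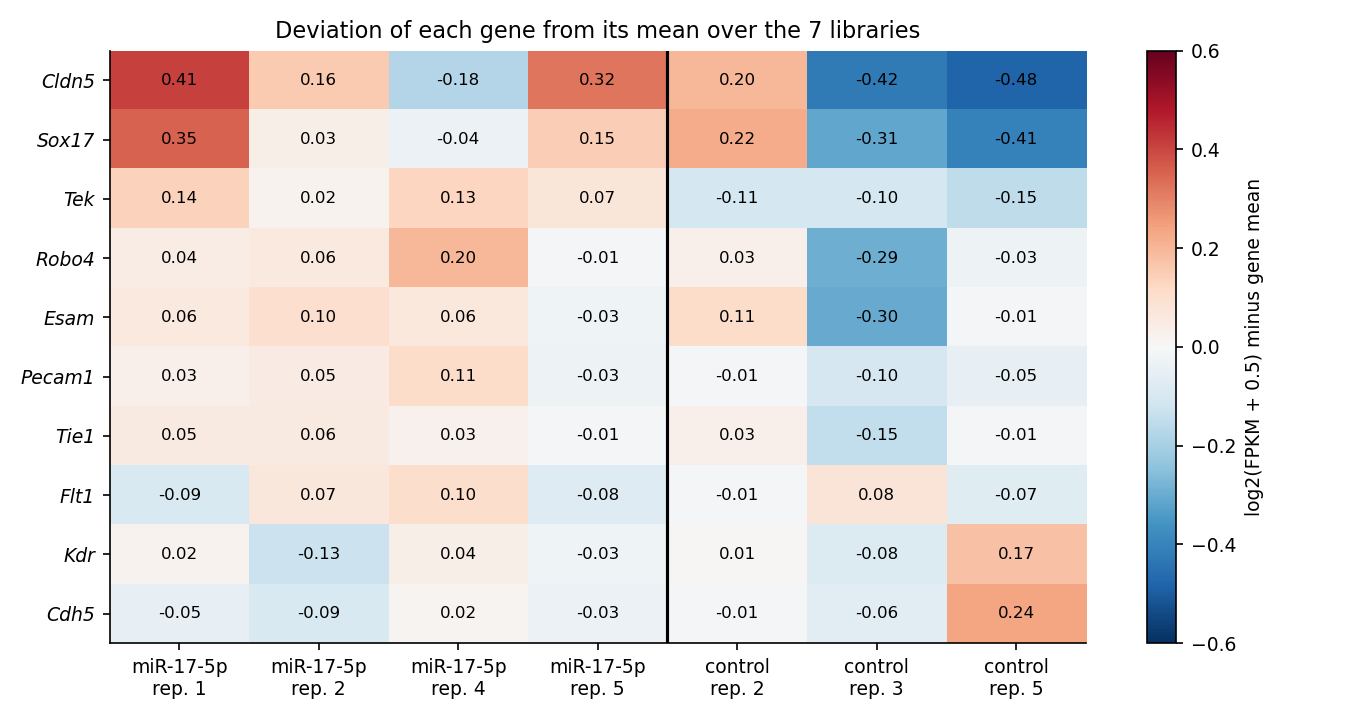
Deviation of each member from its own mean over the 7 libraries (log2 units) by library, miR-17-5p replicates to the left of control replicates, members ordered by fold change. Cldn5 and Sox17 are low in control replicates 3 and 5, while Cdh5 and Kdr are highest in control replicate 5.

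The genes most like the average member profile were sought among 9331 genes at 5 FPKM or more, by the root mean square difference of their centred log2 values over the 7 libraries. The nearest were Ankrd50 (0.019), Acad8 (0.022), Vps41 (0.023), Smg6 (0.026) and Trmt2b (0.027), where the median gene was at 0.145. Tie1 was the member nearest to the average, at 0.039, and Cldn5 the farthest, at 0.265, each being part of that average. The levels of these nearest genes in control ankles were lowest in replicate 3, which follows from choosing them by this profile. Smg6, a factor of nonsense-mediated RNA decay, had 9.45, 8.61, 8.93 and 8.78 FPKM in miR-17-5p ankles, against 9.17, 7.42 and 8.02 FPKM in control ankles. A profile over 7 libraries reflects whatever the libraries share, tissue makeup included.

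Ratios within a library compare a receptor with its partner, or a junction gene or regulator with Cdh5, and cancel any shift common to both. In all, 6 pairs were compared by 2-sided exact permutation tests on the log2 ratio of FPKM, where the smallest p possible was 0.0286, and all 6 overlapped between groups. The Tek to Tie1 ratio was 0.404, 0.371, 0.408 and 0.402 in miR-17-5p ankles, against 0.345, 0.390 and 0.342 in control ankles. Control replicate 3, where Tie1 was low, exceeded miR-17-5p replicate 2. The mean log2 ratios of -1.31 ± 0.0622 (SD, n = 4) in miR-17-5p ankles and -1.45 ± 0.105 (SD, n = 3) in control ankles differed by 0.14 (exact p = 0.0857, adjusted over the 6 pairs 0.257). The Robo4 to Cdh5 ratio was 0.258, 0.269, 0.276 and 0.246 in miR-17-5p ankles, against 0.249, 0.205 and 0.201 in control ankles, a log2 difference of 0.26 (exact p = 0.0571, adjusted 0.257). One control library, replicate 2, lay among the miR-17-5p libraries.

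The Cldn5 to Cdh5 ratio spread widely, at 0.760, 0.658, 0.482 and 0.707 in miR-17-5p ankles, against 0.640, 0.428 and 0.333 in control ankles. Its log2 difference of 0.51 had an exact p of 0.143 (adjusted 0.286). For Sox17 to Cdh5 the log2 difference was 0.38 (exact p = 0.2, adjusted 0.3). The balance of VEGF receptors, Flt1 to Kdr, was 0.418, 0.524, 0.477 and 0.437 in miR-17-5p ankles, against 0.4498, 0.510 and 0.380 in control ankles. Its log2 difference of 0.058 had an exact p of 0.686 (adjusted 0.743) and was -0.049 without control replicate 5. Of the angiopoietins, Angpt2, which can loosen vessels, stood to Angpt1, which activates Tek, at log2 ratios of -0.37 ± 0.0927 (SD, n = 4) in miR-17-5p ankles and -0.43 ± 0.269 (SD, n = 3) in control ankles (exact p = 0.743, adjusted 0.743).

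**Figure D4:**
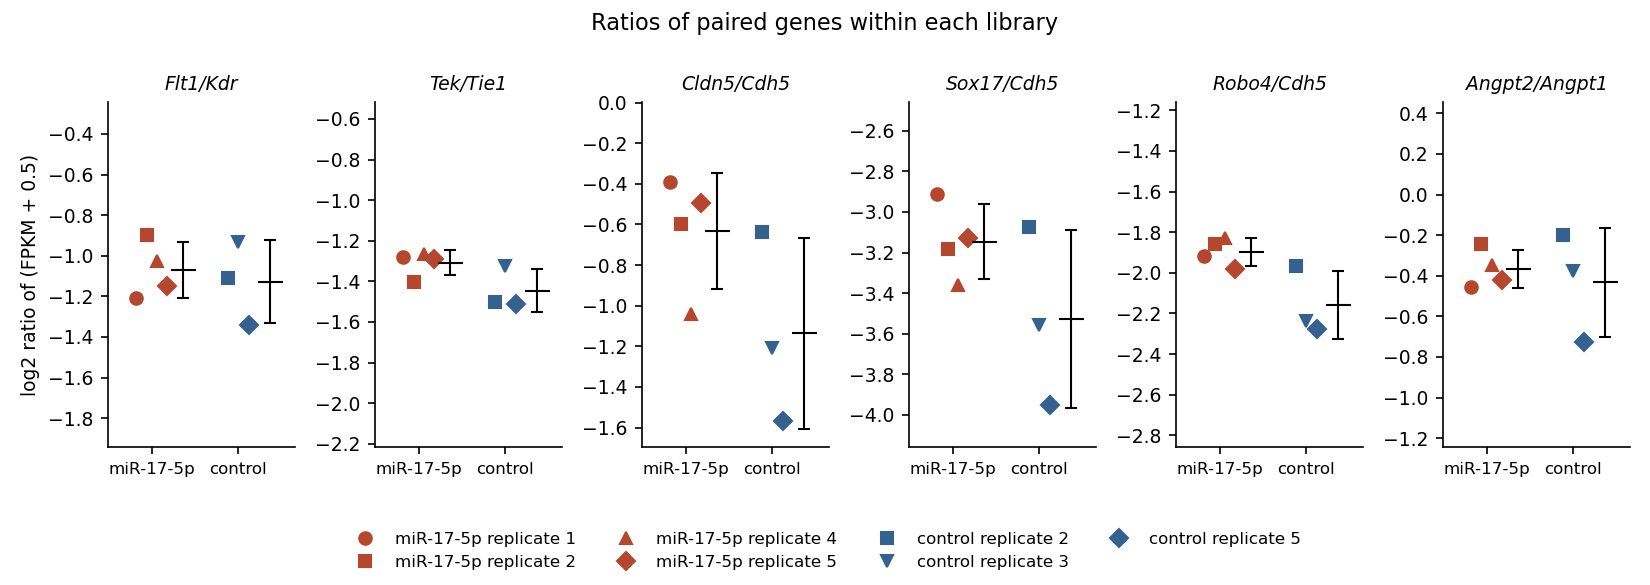
Log2 ratio of FPKM within each library for 6 pairs of genes, miR-17-5p libraries to the left of control libraries, with group means as bars. In every panel the groups overlap, and the Robo4 to Cdh5 and Tek to Tie1 ratios come closest to separating.

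The ligands and co-receptors of these pathways formed a list of 15 genes, of which 7 had a higher and 8 a lower mean in miR-17-5p ankles (median log2 fold change -0.028), with 0 called. Vegfa, the ligand of Kdr and Flt1, averaged 20.3 ± 1.43 FPKM (SD, n = 4) in miR-17-5p ankles and 21.4 ± 1.94 FPKM (SD, n = 3) in control ankles (limma adjusted p = 0.636). Vegfb, which binds Flt1, averaged 22.8 ± 3.48 FPKM in miR-17-5p ankles and 17.2 ± 4.35 FPKM in control ankles (log2 fold change 0.41, SE 0.18, limma adjusted p = 0.286). Nrp2, a co-receptor for VEGF family ligands, was the one gene of the list whose groups did not overlap. It had 27.9, 29.1, 29.9 and 30.3 FPKM in miR-17-5p ankles, against 31.8, 34.6 and 33.4 FPKM in control ankles (log2 fold change -0.18, SE 0.056, limma adjusted p = 0.209). Angpt4, an angiopoietin, had a log2 fold change of 0.51 ± 0.23 (SE; limma's adjusted p = 0.305). Ptprb, the endothelial phosphatase that acts on Tek and Cdh5, averaged 10.7 ± 1.32 FPKM in miR-17-5p ankles and 9.02 ± 1.25 FPKM in control ankles (log2 fold change 0.24, SE 0.12, limma adjusted p = 0.348). Nrp1, the co-receptor of Kdr, averaged 28.4 ± 1.71 FPKM in miR-17-5p ankles and 27.2 ± 1.27 FPKM in control ankles. Of 13 junction partners, Ocln, Cgn and Marveld2 were under 1 FPKM, and the other 10 split into 6 higher and 4 lower means, with 0 called. Jam3 and Jam2, junctional adhesion molecules, had log2 fold changes of 0.15 and 0.26 and limma adjusted p values of 0.329 and 0.413.

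The 20 other pan-endothelial genes were set beside the members. Group means were higher in miR-17-5p ankles for 15 and lower for 5, and their log2 fold changes had a median of 0.10, as the members' did. None was called with all 7 libraries. An unadjusted limma p under 0.05 occurred in 5 of 20, all with higher means, beside 17.6% of all genes in either direction. In 4 (20%) the groups did not overlap, all with miR-17-5p higher. Of all genes, 15.3% did not overlap in either direction, and 6.48% did not overlap with miR-17-5p higher. Ramp2, the adrenomedullin co-receptor, had 102, 95.3, 94.1 and 88.5 FPKM in miR-17-5p ankles, against 81.0, 65.2 and 66.9 FPKM in control ankles. All 4 miR-17-5p libraries lay above the controls, with a log2 fold change of 0.42 ± 0.092 (SE; limma's adjusted p = 0.174). Without control replicate 2 it was 0.52 and was called (limma adjusted p = 0.0378). Clec14a, an endothelial surface lectin, averaged 22.9 ± 2.87 FPKM (SD, n = 4) in miR-17-5p ankles and 15.9 ± 3.98 FPKM (SD, n = 3) in control ankles (log2 fold change 0.53, SE 0.17, limma adjusted p = 0.212). Adgrl4, an endothelial adhesion receptor, averaged 18.0 ± 1.54 FPKM in miR-17-5p ankles and 14.5 ± 0.843 FPKM in control ankles (log2 fold change 0.30, SE 0.081, limma adjusted p = 0.176).

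Transcription factors of the endothelium, apart from Sox17, numbered 16, of which Etv2, active in the embryo, was at 0 in all 7 libraries and not tested. Of the 15 others, 10 had higher and 5 lower means, with 0 called. Ets1, an ETS factor of endothelial and lymphoid cells, had 23.7, 24.7, 24.6 and 24.4 FPKM in miR-17-5p ankles, against 26.7, 25.9 and 26.5 FPKM in control ankles. Its groups did not overlap (log2 fold change -0.11, SE 0.047, limma adjusted p = 0.277). Epas1, the hypoxia factor HIF-2α, had a log2 fold change of -0.21 ± 0.074 (SE; limma's adjusted p = 0.229), and Lmo2, a cofactor of blood and endothelial cells, 0.20 (SE 0.10, limma adjusted p = 0.341).

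Subtypes of vessel went in both directions. Of 11 arterial and Notch genes, 6 had higher and 5 lower means, 0 called. Notch1 had 6.87, 6.95, 7.73 and 6.80 FPKM in miR-17-5p ankles, against 8.21, 8.99 and 7.79 FPKM in control ankles, with no overlap (log2 fold change -0.22, SE 0.073, limma adjusted p = 0.219). Bmx, an arterial kinase, also had non-overlapping groups with a lower mean in miR-17-5p ankles (log2 fold change -0.40, SE 0.12, limma adjusted p = 0.200), and Jag2, a Notch ligand, had a higher mean at 0.31 (SE 0.12, limma adjusted p = 0.246). Of 13 venous, capillary and tip cell genes, 7 had higher and 6 lower means. Apln, the apelin peptide of sprouting tip cells, had 5.73, 7.57, 8.99 and 8.08 FPKM in miR-17-5p ankles, against 9.13, 14.1 and 18.4 FPKM in control ankles. The groups only just separated (log2 fold change -0.79, SE 0.24, limma adjusted p = 0.199), and without control replicate 2 the gene was called at -1.05 (limma adjusted p = 0.0477). Car4, a capillary carbonic anhydrase, had a log2 fold change of -0.55 ± 0.17 (SE; limma's adjusted p = 0.200) and Rgcc, a cell cycle regulator found in capillary endothelium, 0.22 (SE 0.058, limma adjusted p = 0.176), both with groups apart.

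Of 7 lymphatic markers, Prox1 and Reln were under 1 FPKM, and the other 5 had 4 higher means and 1 lower. Ccl21a, a chemokine of lymphatic vessels, had a log2 fold change of 0.43 ± 0.10 (SE; limma's adjusted p = 0.174), and near-identical copies of this gene make its count uncertain. Pdpn, a lymphatic marker that synovial fibroblasts also carry, had -0.30 (SE 0.092, limma adjusted p = 0.200), and Mmrn1, a lymphatic matrix protein, 0.36 (SE 0.20, limma adjusted p = 0.385). Mural cells, which wrap the vessels, were read by 11 pericyte and smooth muscle markers. All 11 had higher means in miR-17-5p ankles (median of the log2 fold changes 0.28), and 0 were called. Of all genes tested, 15.3% had groups apart in either direction, and 6.48% with miR-17-5p higher. For the mural markers this was 2 of 11, both with miR-17-5p higher. Their summed level was 610 to 1185 FPKM in miR-17-5p ankles, against 529 to 1054 FPKM in control ankles. Des, counted in this sum, alone ran from 178 to 679 FPKM in miR-17-5p ankles and from 183 to 617 FPKM in control ankles. The range of the sum therefore mainly followed Des and is a poor measure of the other markers. Rgs5, a pericyte gene, averaged 84.2 ± 10.7 FPKM (SD, n = 4) in miR-17-5p ankles and 67.8 ± 7.55 FPKM (SD, n = 3) in control ankles (log2 fold change 0.31, SE 0.12, limma adjusted p = 0.255). Notch3 and Myh11, of mural and smooth muscle cells, had log2 fold changes of 0.34 and 0.51 (limma adjusted p = 0.284 and 0.296), both with groups apart.

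**Figure D5:**
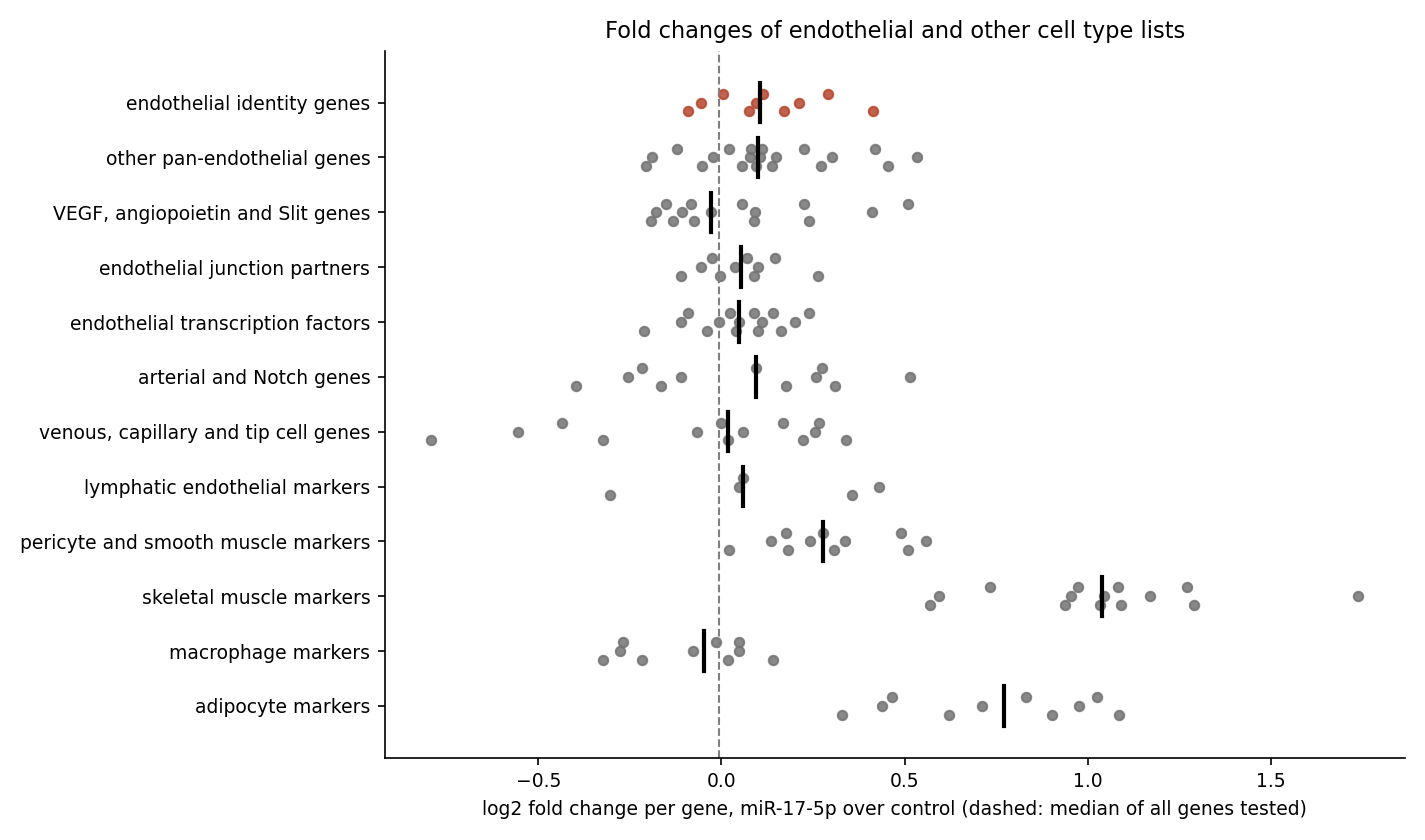
Log2 fold change (miR-17-5p over control) of each tested gene in the endothelial, mural, skeletal muscle, macrophage and adipocyte lists, 1 point a gene, with list medians. The neutrophil, erythroid, platelet and fibroblast lists are not drawn. The members and the other pan-endothelial genes both have a median of 0.10, the muscle list 1.04, the adipocyte list 0.77 and the macrophage list -0.047.

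Among markers of other cells of the ankle, the muscle, adipocyte, erythroid and neutrophil lists had larger median differences between the groups than the endothelial genes, while the macrophage, fibroblast and platelet lists did not. All 14 skeletal muscle markers had higher means in miR-17-5p ankles (median log2 fold change 1.04), with a summed level of 3495 to 13151 FPKM in miR-17-5p ankles, against 1455 to 8721 FPKM in control ankles. All 10 adipocyte markers had higher means (median 0.77). In 6 of 10 the groups were apart with miR-17-5p higher, beside 6.48% of all genes tested in that direction and 15.3% in either. The adipocyte markers summed to 1186 to 1548 FPKM in miR-17-5p ankles, against 610.3 to 1082 FPKM in control ankles. All 6 tested erythroid markers had higher means (median 1.17). The 12 neutrophil markers all had lower means (median -0.68), their sum being 1376 to 3541 FPKM in miR-17-5p ankles, against 3214 to 6567 FPKM in control ankles. The 10 macrophage markers were mixed, 4 higher and 6 lower. The summed level of the 10 macrophage markers, a cell type that can carry Flt1, was 1157 to 1550.0 FPKM in miR-17-5p ankles, against 1297 to 1467 FPKM in control ankles. Platelet and megakaryocyte markers, of cells that carry Pecam1 and Esam, summed to 73.0 to 185 FPKM in miR-17-5p ankles, against 98.4 to 185 FPKM in control ankles. The 10 fibroblast markers had 5 higher and 5 lower means. No gene of any of these lists was called with all 7 libraries. Without control replicate 2, Cxcr2 of the neutrophil list was called at a log2 fold change of -1.76 (limma adjusted p = 0.0219) and Fabp4 of the adipocyte list at 0.86 (limma adjusted p = 0.0489), both named here after their values were seen.

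By library, the muscle list's mean log2 level was 7.30, 8.93, 8.08 and 9.09 in miR-17-5p replicates 1, 2, 4 and 5, against 8.60, 7.45 and 5.89 in control replicates 2, 3 and 5. Control replicate 5, with the least muscle RNA, was the library in which Cdh5 and Kdr were highest and Cldn5 and Sox17 lowest. With the muscle level as a covariate, the log2 fold change of Cldn5 was 0.26, of Sox17 0.18 and of Tek 0.22, and that of Kdr was 0.013. With the erythroid list as covariate instead, Cldn5 was at 0.49, Sox17 at 0.28, Tek at 0.19 and Kdr at -0.020. No member was called in either fit, the limma adjusted p of Tek being 0.292 with muscle and 0.452 with erythroid. Whether cell content shaped the members' values was not tested, and no fit took adipocyte, neutrophil or mural cell levels as covariate. The summed level of the 10 members was 326.1 to 339.1 FPKM in miR-17-5p ankles, against 287.0 to 330.1 FPKM in control ankles. The sums overlap, and the 20 other pan-endothelial genes also overlapped, at 721 to 824 FPKM in miR-17-5p ankles, against 679 to 735 FPKM in control ankles.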

How the data were processed

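Gene levels were measured by RNA-seq in 4 miR-17-5p and 3 control ankles. The values the authors deposited are FPKM per gene with exon length, in mm10 coordinates. Per the submitters' processing notes, bcl2fastq 2.20, STAR 2.5.2b, featureCounts of Subread and DESeq2 1.14.1 were named. The sources used here do not give the library kit, strand setting or annotation. Of 27179 gene numbers, 25275 matched a symbol in RefSeq GRCm38.p6. Multiplying FPKM by length gave whole reads for 100.0% of values (within 0.01 read). The closest of 21 library pairs had a chi-square of 17.6 per gene, so no library was a copy of another.

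Genes averaging 1 FPKM or more were tested on log2(FPKM + 0.5) with limma 3.58.1 in R 4.3.3 (lmFit, eBayes with trend), without covariates, 2-sided, Benjamini-Hochberg over 13418 genes, checked on simulated data. Ratios were tested by exact permutation. The 19 alternatives covered pseudocount, filter, scaling, limma-voom on recovered reads, variance model, marker covariates, the replicate block and leaving out each library. UTRs came from GENCODE M21 basic transcripts. The members and the 16 gene lists, with 192 entries, were chosen with earlier results of these data known. Beside the members, the text names the 3 genes of lowest p in each of 8 vessel lists and the 5 genes nearest the members' profile, except 1 that is not reported here. Vegfa, Angpt1, Angpt2, Ptprb, Nrp1 and Mir17hg were named for their role. Per library, 1 read in a 1 kb gene was worth 0.0321 to 0.0364 FPKM, and counting errors cover counting only.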

Additional observations from a re-analysis of the deposited data

Results flagged for a closer look

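Among 44 genes checked in the 4 miR-17-5p ankles, Notch1 was the one with a library set apart from the rest. Replicate 4 had 7.73 FPKM and the other 3 miR-17-5p ankles 6.80 to 6.95 FPKM. The gap made up 0.836 of the group's range, just past Dixon's 95% limit for 4 samples. Chance alone flags about 1 in 20 such groups. No endothelial identity gene was set apart in this way. The controls, with 3 libraries, were not checked.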

How the results depend on the processing

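No member was called under any of the 19 alternatives. The count of genes called over the whole table was 0 with all genes at 1 FPKM or more, 1 with no filter on low values (21363 genes), and 0 to 318 when each library was left out in turn, the 318 being without control replicate 2. All other alternatives gave 0. Under the replicate block, which uses numbers 2 and 5 only, 0 genes were called and 1064 had an unadjusted p under 0.05. The deviations of same-numbered libraries correlated at 0.54 for number 2 and -0.43 for number 5. With opposite signs and so few libraries, these values cannot decide whether the numbers pair the samples.

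Directions turned in some alternatives for Flt1, Kdr, Esam, Angpt1 and the Flt1 to Kdr and Angpt2 to Angpt1 differences, and the cause was not tested. With all 7 libraries and no covariate, the log2 fold changes were 0.0030 for Flt1, -0.055 for Kdr, 0.11 for Esam and -0.15 for Angpt1. With the muscle covariate Kdr was at 0.013, Flt1 at -0.025 and Angpt1 at 0.031. Flt1 was at -0.078 with the erythroid covariate and between -0.033 and 0.042 when each library was left out in turn. Over the same fits Kdr ran between -0.11 and 0.016, Esam between -0.0031 and 0.20, Angpt1 between -0.29 and 0.0024, the Flt1 to Kdr difference between -0.049 and 0.16, and the Angpt2 to Angpt1 difference between -0.080 and 0.18. Esam was at -0.015 under the replicate block. The number of libraries limits the precision more than depth does.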
